A study of Mus musculus with 10 samples.

Results

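Spermatogonial stem cell maintenance factors were examined as 10 genes whose products keep the stem cell pool of the testis or mark the cells in it: Zbtb16, Foxo1, Taf4b, Nanos2, Nanos3, Eomes, Pdx1, Shisa6, Utf1 and Sall4. They are 10 of 21887 annotated protein-coding genes. Every cytosine of a CpG that had at least 5 reads in both libraries and lay in the gene or within 2 kb of it was taken, which gave 3647 of 6745376 listed cytosines, in 2377 CpGs. The choice used the gene names and the read depth, not the methylation values, but it was made with earlier results of these data known.

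The study set the DNA methylation of a TSPAN8-high fraction of spermatogonia against that of a TSPAN8-low fraction, TSPAN8 being a cell surface tetraspanin. Both fractions came from testes of male pups at postnatal day 6 of the LT-11B6 strain, which carries the Id4-eGfp transgene on a C57BL/6 background, and both held cells positive for ID4-EGFP, so no group without the transgene was compared. Cell sorting with an antibody to TSPAN8 took the 1/3 of these cells with the strongest label as TSPAN8-high and the 1/3 with the weakest label as TSPAN8-low. Per the labels, DNA of 5 pooled sorts per fraction, 300 ng, was cut with BfaI, MseI and MspI and read by reduced-representation bisulfite sequencing (RRBS), which gave 1 library per fraction and no replicate error.

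Spermatogonial stem cells renew themselves or give rise to progenitors that go on to differentiate, and the choice depends on transcription factors, on RNA-binding proteins and on signals from the niche. Methylation of the cytosine in a CpG is usually low across CpG-rich start regions and high elsewhere in the genome of male germ cells at this age. RRBS reports, at each CpG, the share of reads in which the cytosine was protected from conversion. A level between the extremes can mean some cells fully methylated or all cells partly so, which cannot be told apart here.

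The members differ in how many CpGs their start sites hold. The 300 bases around the start site (250 before it, 50 after it, RefSeq, GRCm38.p6) were at hand for 6 members, not for Zbtb16, Taf4b, Shisa6 and Sall4. Of the 6, 5 are shown because they bracket the range of those 6: Foxo1 with the most, Eomes and Pdx1 between, and Nanos3 and Nanos2 with few or none. Capitals mark the CpGs that were listed with at least 5 reads in both libraries. The windows are chr3:52268087-52268386 (plus strand) for Foxo1, chr9:118477939-118478238 (plus) for Eomes, chr5:147269847-147270146 (plus) for Pdx1, chr8:84176503-84176802 (minus) for Nanos3 and chr7:18987274-18987573 (plus) for Nanos2.
Foxo1: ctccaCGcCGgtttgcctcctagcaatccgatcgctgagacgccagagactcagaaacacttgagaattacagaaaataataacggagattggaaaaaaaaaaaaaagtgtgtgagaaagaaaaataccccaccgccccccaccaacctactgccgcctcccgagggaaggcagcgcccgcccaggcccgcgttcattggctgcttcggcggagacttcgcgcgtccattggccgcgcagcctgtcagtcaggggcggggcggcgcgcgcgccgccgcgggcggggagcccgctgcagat
Eomes: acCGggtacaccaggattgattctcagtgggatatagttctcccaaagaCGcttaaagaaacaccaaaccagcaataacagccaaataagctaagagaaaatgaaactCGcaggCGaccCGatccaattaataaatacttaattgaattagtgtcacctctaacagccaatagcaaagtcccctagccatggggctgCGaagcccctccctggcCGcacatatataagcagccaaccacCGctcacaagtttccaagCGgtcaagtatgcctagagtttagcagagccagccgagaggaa
Pdx1: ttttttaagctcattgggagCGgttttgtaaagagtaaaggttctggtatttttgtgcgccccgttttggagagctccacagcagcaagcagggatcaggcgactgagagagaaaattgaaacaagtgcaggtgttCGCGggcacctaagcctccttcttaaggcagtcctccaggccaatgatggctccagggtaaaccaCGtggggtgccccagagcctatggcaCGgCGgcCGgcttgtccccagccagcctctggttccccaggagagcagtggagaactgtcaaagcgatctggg
Nanos3: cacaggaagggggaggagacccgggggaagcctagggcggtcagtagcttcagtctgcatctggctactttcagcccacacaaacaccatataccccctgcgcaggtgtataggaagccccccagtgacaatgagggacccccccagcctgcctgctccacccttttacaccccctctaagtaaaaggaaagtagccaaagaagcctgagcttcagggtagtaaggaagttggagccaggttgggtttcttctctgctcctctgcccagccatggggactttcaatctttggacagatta
Nanos2: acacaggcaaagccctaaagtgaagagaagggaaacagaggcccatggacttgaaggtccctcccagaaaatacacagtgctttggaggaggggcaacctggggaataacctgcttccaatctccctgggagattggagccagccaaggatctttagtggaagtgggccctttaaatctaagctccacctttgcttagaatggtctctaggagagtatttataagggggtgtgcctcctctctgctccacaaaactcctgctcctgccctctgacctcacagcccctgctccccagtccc

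The letters CG, which read the same on both strands, occurred 31 times in the Foxo1 sequence, and 13.5% of 17492 promoters held as many or more. The Eomes sequence held 10, the Pdx1 sequence 11 and the Utf1 sequence, which is not shown, 17, against a median of 13 over all promoters (quartiles 4 and 24). Nanos3 had 3, and 25% of promoters had as few. Nanos2 had 0, as did 911 promoters (5.21%). RRBS reached these CpGs unevenly. In Foxo1, 2 of the 31 were listed, in Eomes 9 of 10 and in Pdx1 7 of 11. At the listed CpGs of the Foxo1 sequence, 0 of 24 reads were methylated in TSPAN8-high and 0 of 23 in TSPAN8-low. The Eomes sequence stood at 3.54% of 113 reads in TSPAN8-high and 2.17% of 138 reads in TSPAN8-low, and the Pdx1 sequence at 0% of 64 reads in TSPAN8-high, against 1.02% of 98 reads in TSPAN8-low. The Utf1 sequence, with 3 of 17 listed, stood at 6.12% of 49 reads in TSPAN8-high, against 0 of 36 reads in TSPAN8-low.

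The 3647 cytosines carried 47109 reads of the TSPAN8-high library and 47542 of the TSPAN8-low library, with medians per cytosine of 10 for TSPAN8-high and 11 for TSPAN8-low. The whole table carried 83658949 reads of TSPAN8-high and 83773700 of TSPAN8-low, with a median of 10 for each. Promoter windows of 8 germline genes that are methylated in body cells ranged from 0.826% to 12.3% in TSPAN8-high and from 0.903% to 15.6% in TSPAN8-low, with Tex101 highest and 6 of 8 below 5% in both. Those of 6 imprinted genes that body cells methylate on the maternal copy, and male germ cells on neither, ranged from 0.290% to 13.2% in TSPAN8-high and from 0.446% to 13.4% in TSPAN8-low, with Mest highest and 5 of 6 below 5% in both. A further gene of that list, Snrpn, had 3 CpGs in its window, too few for the test. There, 48 of 56 reads were methylated in TSPAN8-high (85.7%) and 74 of 92 in TSPAN8-low (80.4%). Whether these CpGs lie in its imprinted region was not tested. The imprinted gene Plagl1 was the only window of both lists with an adjusted p below 0.05. It stood at 2.78% in TSPAN8-high, against 1.04% in TSPAN8-low (adjusted p = 0.0241, Fisher's exact test). Expression was not measured, and any part of other cells in the results below was not tested.

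Which parts of these genes were methylated, and whether that differed between the fractions, was asked first at the start sites. A promoter window reached 1 kb either side of the start site, and a window was tested with at least 5 CpGs, by a two-sided Fisher's exact test on the pooled methylated and unmethylated reads, with Benjamini-Hochberg adjustment over 15807 genes. For Zbtb16, Taf4b, Shisa6 and Sall4 the start site was taken as the gene end with more listed CpGs, which favours an unmethylated window. A window counted as called where the adjusted p was under 0.05 and the levels lay 10 percentage points or more apart. The test compares the reads of 2 libraries, not the conditions, and a read that covers several CpGs counts at each of them, which makes p too small and intervals too narrow. All intervals are 95% intervals, Wilson for a level and Newcombe for a difference, and cover counting error only.

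All 8 tested promoter windows were below 5% methylated in both libraries, as were 69.1% of all tested windows (10930). The median of the 8 was 0.871% for TSPAN8-high and 0.485% for TSPAN8-low. The members held a median of 59.5 CpGs per window against 31 over all genes. None of the 8 was called, against a background of 0.601% of all windows called, and 1 of 8 had an unadjusted p below 0.05, against 17% of all. In the order from high to low, Pdx1 stood first in both libraries, followed by Sall4, and Shisa6 last. Of the 7 pairs of neighbours in that order, the interval of the difference included 0 in all 7 in TSPAN8-high and in all but 2 in TSPAN8-low. Those 2 were Pdx1 over Sall4, 1.67 points apart (0.435 to 3.14), and Eomes over Taf4b, 0.587 points apart (0.0164 to 1.29).

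Among the DNA-binding factors, Zbtb16 (PLZF, a zinc finger repressor needed for stem cell self-renewal; mm10 chr9:48651797-48836225) had 101 CpGs in its window, at 0.544% of 1837 reads in TSPAN8-high and 0.445% of 1796 reads in TSPAN8-low. The difference was 0.0989 points (-0.399 to 0.604). Foxo1 (a forkhead factor under control of PI3K and AKT signalling; chr3:52268337-52350109) was at 0.368% of 1630 reads in TSPAN8-high and 0.442% of 1812 reads in TSPAN8-low, a difference of -0.0734 points (-0.545 to 0.411). Both start regions were nearly free of methylation in both fractions.

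Eomes, a T-box factor of a subset of the stem cells (chr9:118478186-118486132), was at 0.682% of 1613 reads in TSPAN8-high and 1.11% of 1529 reads in TSPAN8-low, a difference of -0.430 points (-1.16 to 0.248). Pdx1, a homeodomain factor best known from the pancreas that also marks a subset of spermatogonia (chr5:147270097-147275848), was at 3.00% of 1000 reads in TSPAN8-high and 3.16% of 886 reads in TSPAN8-low, a difference of -0.160 points (-1.79 to 1.42). Sall4, a zinc finger factor needed by undifferentiated spermatogonia (chr2:168748332-168767201), was at 2.56% of 1211 reads in TSPAN8-high and 1.49% of 1412 reads in TSPAN8-low. Its difference was 1.07 points (-0.00685 to 2.24), with an adjusted p of 0.339 by Fisher's exact test.

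Taf4b, a subunit of the TFIID complex enriched in germ cells (chr18:14783201-14960424), was the member with an unadjusted p below 0.05. Its 94 CpGs stood at 1.06% of 2642 reads in TSPAN8-high and 0.525% of 2287 reads in TSPAN8-low, a difference of 0.535 points (0.0269 to 1.05), with p = 0.0390 by Fisher's exact test and 0.260 after adjustment. Utf1, a chromatin-associated factor of undifferentiated spermatogonia (chr7:139943856-139945112), was at 1.26% of 556 reads in TSPAN8-high and 0.311% of 644 reads in TSPAN8-low, with an adjusted p of 0.395 by the same exact test. Shisa6, a membrane protein known to restrain WNT signalling in spermatogonia (chr11:66211725-66527984), had 5 CpGs in its window, with 0 of 60 reads methylated in TSPAN8-high and 0 of 47 in TSPAN8-low, which, at 3 reads of the total, allows a level of up to 5% in TSPAN8-high, against 6.38% in TSPAN8-low. The Wilson upper limits, which the plot of levels by region uses, were 6.02% in TSPAN8-high, against 7.56% in TSPAN8-low. Reads are summed over the 5 CpGs, and a read that covers several counts at each, so all these limits may be too low. After adjustment none of these differences passed the threshold.

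Both RNA-binding NANOS genes had too few CpGs near the start for the test, and those few were methylated. Nanos2, which keeps stem cells from differentiating (chr7:18987524-18988962), had 2 CpGs within 1 kb of its start, with 22 of 23 reads methylated in TSPAN8-high (95.7%, 79.0 to 99.2%) and 42 of 48 in TSPAN8-low (87.5%, 75.3 to 94.1%). Nanos3, its relative in spermatogonia that are closer to differentiation (chr8:84173733-84176552, minus strand), had 1, with 4 of 5 reads methylated in TSPAN8-high and 8 of 10 in TSPAN8-low. The intervals of the 2 libraries overlapped at both genes. The flanks of Nanos3 were methylated too. They stood at 94.4% of 36 reads upstream and 98.6% of 145 reads downstream in TSPAN8-high, against 98.2% of 55 and 95.3% of 149 in TSPAN8-low, and 11 of its 24 listed cytosines lay in the neighbouring gene 4930432K21Rik.

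**Figure D1:**
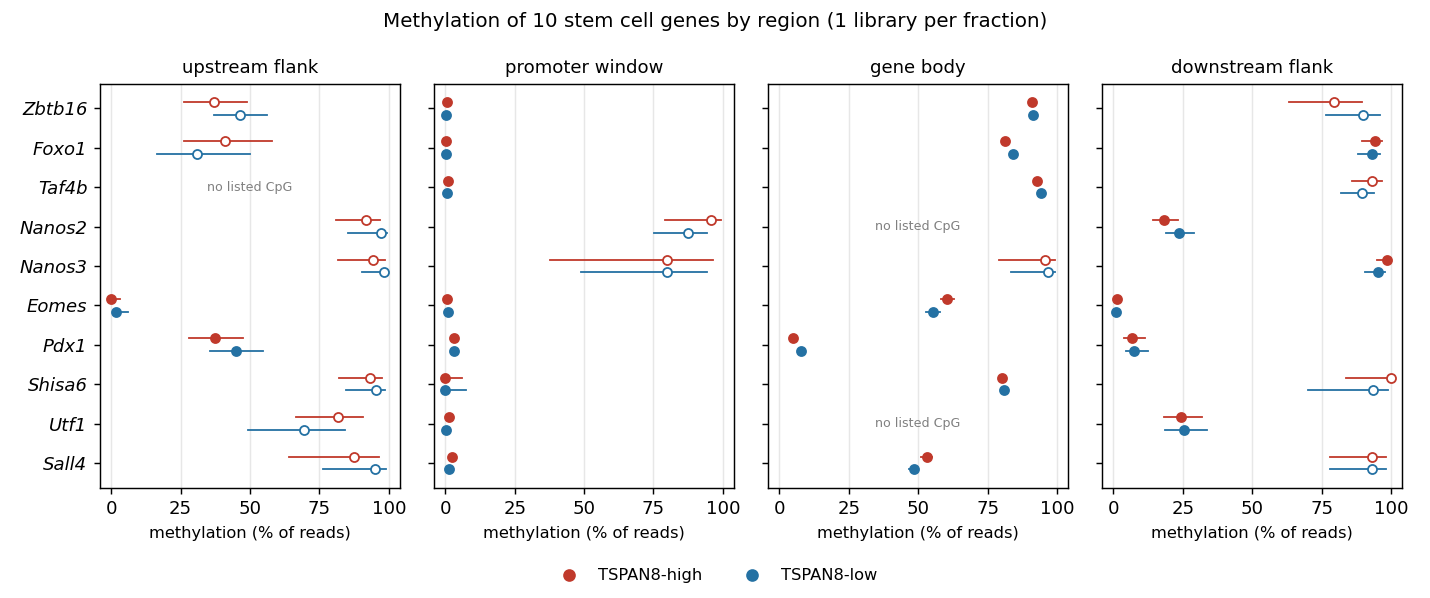
Methylation (percent of reads) of the 10 genes in the upstream flank, promoter window, gene body and downstream flank, for TSPAN8-high (red, upper point of each pair) and TSPAN8-low (blue, lower point), with 95% Wilson intervals and open points for fewer than 5 CpGs. In the promoter windows 8 genes sit below 5% in both libraries, while Nanos2 (95.7% and 87.5%) and Nanos3 (80% in both) rest on 2 and 1 CpGs.

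The unmethylated DNA was then traced along each gene, as stretches of at least 5 CpGs with a local level below 20% over both libraries. These levels were part of the choice and are given as a description. There were 12 stretches in 9 of the 10 genes, from 702 to 4751 bp long, and 7 of them spanned a start site. Both Eomes stretches, the last of Pdx1 and those of Nanos2 and Taf4b reach the outermost listed CpG within 2 kb of the gene, so their lengths may be cut there. Nanos3 had none. In 9 of the 12, the first and last CpG were the same when the stretch was drawn from each library alone.

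Zbtb16 was unmethylated over 2915 bp (116 CpGs), with 0.663% of reads methylated in TSPAN8-high, against 0.906% in TSPAN8-low. Foxo1 was so over 3555 bp (92 CpGs), with 0.499% in TSPAN8-high, against 0.745% in TSPAN8-low, and Taf4b over 2510 bp (99 CpGs), with 1.41% in TSPAN8-high, against 0.874% in TSPAN8-low. As listed, each of these stretches reached further into the gene than upstream of it, to 2576 bp from the start site in Foxo1. In Taf4b no CpG was listed upstream of the stretch, so its reach on that side is not known. Sall4 (2899 bp, 113 CpGs) stood at 1.13% in TSPAN8-high, against 0.761% in TSPAN8-low, and its ends differed by 28 and 297 bp between the libraries. The Sall4 start region also lies in the lncRNA gene Gm14261, in which 79 of its 300 cytosines fell.

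Shisa6 could not be set against that layout at its start. Its 103 unmethylated CpGs (1.08% in TSPAN8-high, against 0.835% in TSPAN8-low) lay from 700 to 3095 bp inside the annotated gene end, and its promoter window caught only 5 of them. No CpG was listed between the bin from -1600 to -1401 bp and that from 600 to 799 bp, so where the stretch begins cannot be seen. The upstream flank of Shisa6 was methylated, at 93.3% of 45 reads in TSPAN8-high and 95.3% of 43 reads in TSPAN8-low. Nanos2 had its unmethylated CpGs on the far side: 9 CpGs from 2316 to 3049 bp past the start, beyond the end of the gene, at 1.04% of 192 reads in TSPAN8-high and 1.14% of 176 reads in TSPAN8-low.

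Eomes and Pdx1 had several unmethylated stretches each. In Eomes the stretch at the start ran from 1984 bp upstream to 2766 bp downstream (4751 bp, 113 CpGs, 1.34% in TSPAN8-high, against 1.77% in TSPAN8-low). The lncRNA gene Gm33408 crosses the start and held 89 of the 340 cytosines of Eomes. A second stretch, of 54 CpGs past the gene end, lay inside the lncRNA gene Gm33460 and stood at 1.37% in TSPAN8-high, against 0.758% in TSPAN8-low. Methylated sequence lay between both, since the bin of 8 CpGs from 4000 bp past the Eomes start was at 96.8% of 125 reads in TSPAN8-high and 100% of 98 reads in TSPAN8-low.

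Pdx1 had little methylation along its length, at 5.33% in TSPAN8-high, against 7.62% in TSPAN8-low over the gene and its flanks. Its 3 stretches held 63 CpGs around the start, 48 CpGs from 4248 to 5225 bp past it and 10 CpGs beyond the gene. Over the 48 CpGs the TSPAN8-high library stood at 1.03% and the TSPAN8-low library at 2.17%, which differ by -1.14 points (-2.33 to -0.0531). Between the first and the second stretch, the tile chr5:147273001-147274000 stood at 58.3% of 60 reads in TSPAN8-high and 71.6% of 74 reads in TSPAN8-low, with p = 0.143 by Fisher's exact test. The start of Pdx1 overlaps the lncRNA gene Plut, which held 93 of its 225 cytosines.

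**Figure D2:**
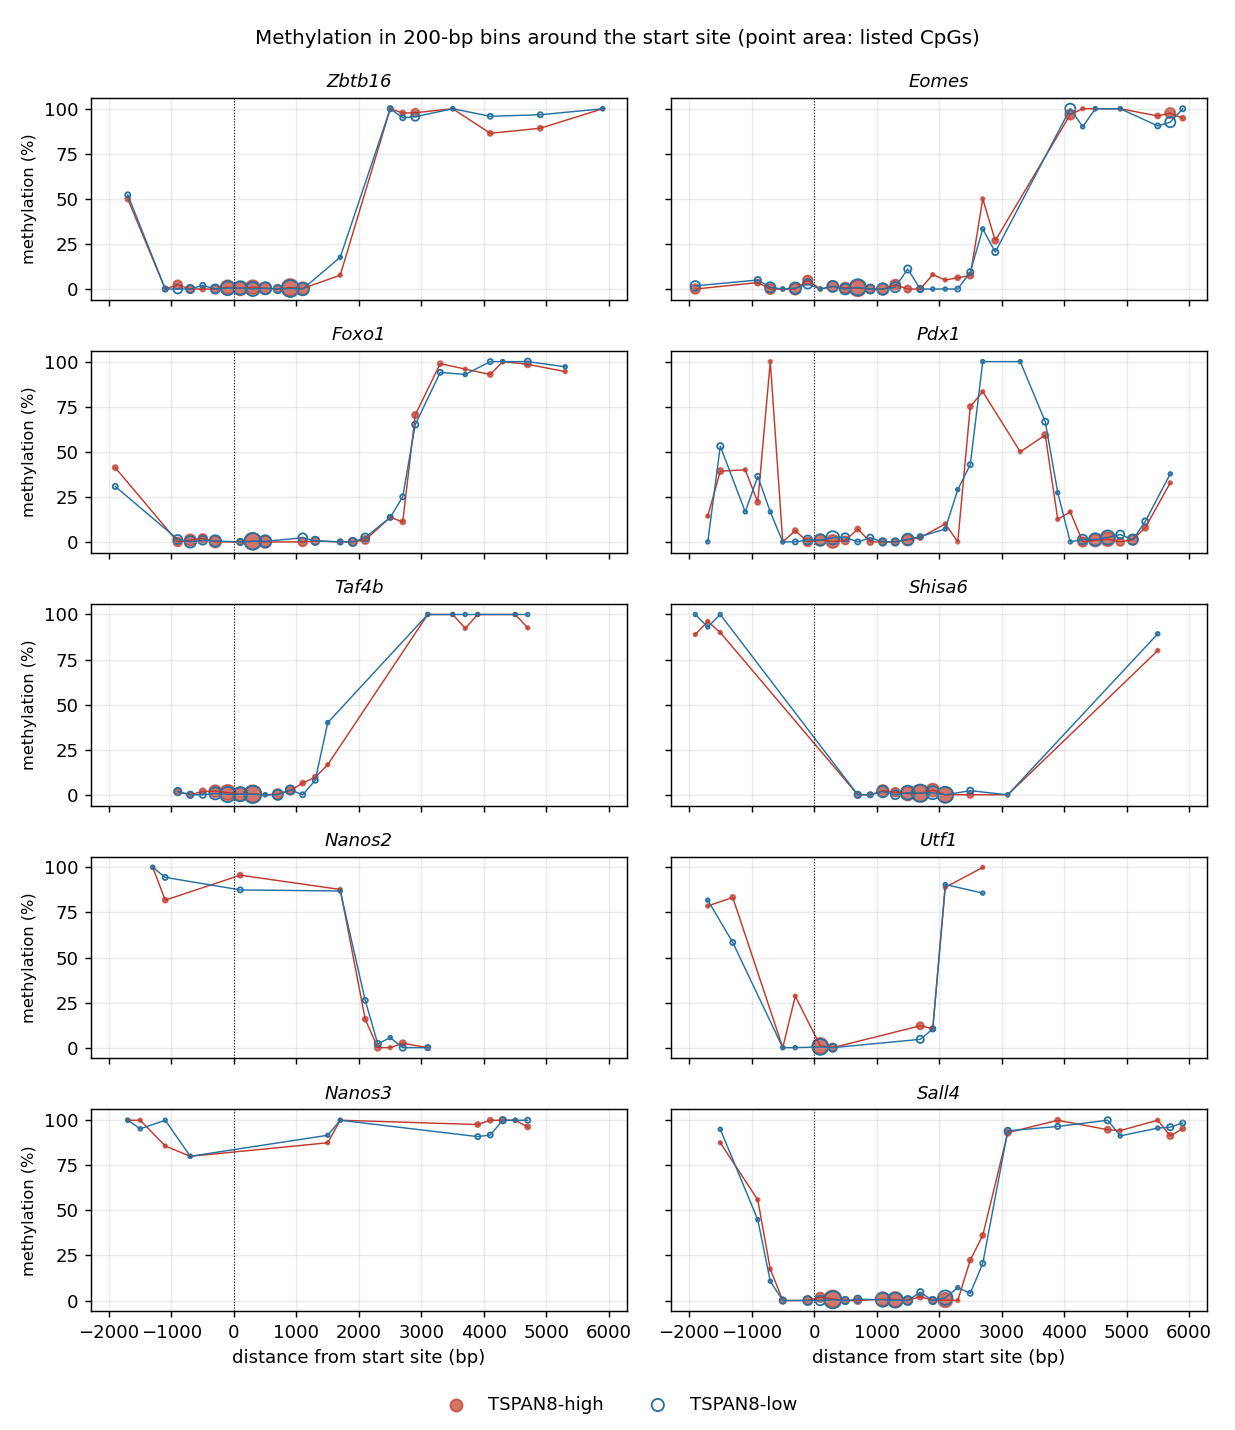
Methylation (percent of reads) in bins of 200 bp from 2000 bp before to 6000 bp after the start site of each gene, for TSPAN8-high (red, filled) and TSPAN8-low (blue, open), with point area set by the number of listed CpGs and lines joining bins that hold any. The unmethylated stretches of both libraries lie over each other, spanning the start in Zbtb16, Foxo1, Taf4b, Eomes, Pdx1, Utf1 and Sall4. That of Nanos2 starts 2316 bp past the start. That of Shisa6 is seen from 700 bp inside the gene, and no CpG was listed between there and the upstream flank.

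Gene bodies, the span outside the promoter window, were compared in the same way over 17410 genes. Zbtb16, Taf4b, Foxo1 and Shisa6 had bodies above 80% methylated in both libraries, as did 67.8% of all genes. Zbtb16 (501 CpGs) stood at 91.0% in TSPAN8-high, against 91.2% in TSPAN8-low, Shisa6 (513 CpGs) at 80.3% in TSPAN8-high, against 80.8% in TSPAN8-low, and Taf4b (227 CpGs) at 92.9% in TSPAN8-high, against 94.4% in TSPAN8-low, which gave an adjusted p of 0.0544 by the exact test. The bodies of Eomes, Sall4 and Pdx1 were lower. A body takes in any part of the unmethylated start stretch beyond 1 kb, which reached 2766 bp in Eomes, 2442 bp in Sall4 and 3095 bp in Shisa6. Over gene and flanks, 13 of 17 tested tiles of Sall4 were above 80% in both libraries and 3 below 20%. In Eomes these were 4 and 6 of 11. The body levels of Eomes and Sall4 thus average over both states. Nanos2 and Utf1 had no listed CpG in the body, and Nanos3 had 2.

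None of the 7 tested bodies was called, against 0.816% of all bodies. An unadjusted p below 0.05 was found in 5 of 7, against 20.1% of all. Without a minimum difference, 4 of 7 passed an adjusted p of 0.05, against 7.56% of all bodies, and the members held a median of 208 CpGs against 52. In Eomes the body stood at 60.5% of 1741 reads in TSPAN8-high and 55.4% of 1592 reads in TSPAN8-low (adjusted p = 0.0408, Fisher's exact test), a difference of 5.14 points (1.78 to 8.48). In Sall4 it stood at 53.0% of 2758 reads in TSPAN8-high and 48.4% of 3171 reads in TSPAN8-low (adjusted p = 0.0102, exact test). The Sall4 difference was 4.67 points (2.12 to 7.21), at 9.24 on the plus strand alone and -0.691 on the minus strand alone. Reads fell on methylated and unmethylated CpGs in unequal proportion in the 2 libraries: with each cytosine counted once, Eomes was at 61.3% in both and Sall4 at 54.2% in TSPAN8-high, against 53.9% in TSPAN8-low.

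Lower values in TSPAN8-high were found in the other pair. The Foxo1 body stood at 81.4% of 3980 reads in TSPAN8-high and 84.1% of 4073 reads in TSPAN8-low, a difference of -2.66 points (-4.31 to -1.01, adjusted p = 0.0279, exact test), and at 83.7% in TSPAN8-high, against 83.5% in TSPAN8-low, with each cytosine counted once. The Pdx1 body stood at 4.89% of 1922 reads in TSPAN8-high and 7.78% of 1851 reads in TSPAN8-low, a difference of -2.89 points (-4.47 to -1.34, adjusted p = 0.00878, exact test). With each cytosine counted once, the Pdx1 difference was -1.25 points. At a minimum of 10 reads, which left 1542 of the 3647 member cytosines, no member body passed the adjusted p of 0.05. The differences were then 5.49 points in Eomes and 4.48 in Sall4, and -1.35 in Foxo1 and -1.36 in Pdx1.

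**Figure D3:**
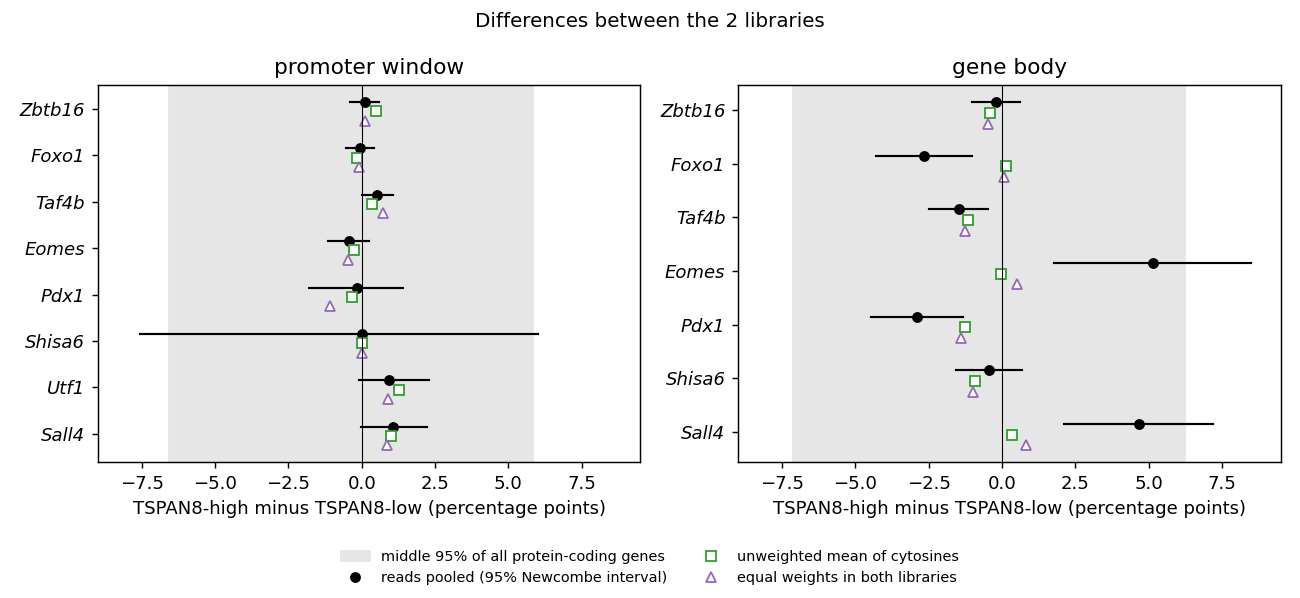
Difference in methylation, TSPAN8-high minus TSPAN8-low, in percentage points, for the promoter windows and bodies of the tested genes, as pooled reads with a 95% Newcombe interval (black), as the mean over cytosines (green square) and with equal weights in both libraries (purple triangle). Grey spans the middle 95% of all protein-coding genes (-6.56 to 5.83 for windows, -7.14 to 6.25 for bodies), and all members lie in it, with Eomes (5.14) and Sall4 (4.67) near 0 once cytosines are weighted alike.

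In tiles of 1 kb with at least 3 CpGs, 255 were tested in the members, 109 higher and 136 lower in TSPAN8-high, with a median difference of -0.306 points. Of these, 211 were above 80% and 31 below 20% in both libraries. None was called, against 0.268% of 585220 tiles, and 16 (6.27%) had an unadjusted p below 0.05, against 8.6% of all. The smallest adjusted p was 0.0853, in the Taf4b tile chr18:14914001-14915000, with 79 of 91 reads methylated in TSPAN8-high (86.8%) and 77 of 77 in TSPAN8-low (exact test). The tile of largest difference, in Shisa6 at chr11:66275001-66276000, stood at 85.2% of 54 reads in TSPAN8-high and 100% of 40 reads in TSPAN8-low, a difference of -14.8 points (-26.6 to -3.53). In the other members the tile of largest difference ranged from 14.3 points in Taf4b and 12.01 in Utf1, where TSPAN8-high was higher, to -13.3 in Pdx1 and -11.5 in Zbtb16, where it was lower. It was 8.68 in Sall4, 6.32 in Eomes, 4.46 in Nanos3, -5.31 in Nanos2 and -7.69 in Foxo1.

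Single cytosines showed no called difference either, against 0.00111% of all cytosines called. At the median depth of the members, full methylation in 1 library and none in the other would not pass the adjustment. A call was thus out of reach at a typical member cytosine, and the lack of calls does not show equal levels. A Fisher's exact test gave an unadjusted p below 0.05 at 28 of the 3647 (0.768%), against 1.46% of the whole table, and the smallest adjusted p was 1. The authors' deposited table also had 28 below 0.05 among them, against 1.45% of all. Of the cytosines with such a p, the Pdx1 site 785 bp before the start had the widest gap, with 5 of 5 reads methylated in TSPAN8-high and 1 of 6 in TSPAN8-low. At the edge of the Sall4 stretch, 2442 bp inside the gene, 10 of 23 reads were methylated in TSPAN8-high and 0 of 12 in TSPAN8-low. The other strand of this Sall4 CpG had 2 of 20 reads methylated in TSPAN8-high and 2 of 21 in TSPAN8-low.

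The 2 strands of a CpG were set side by side as a description, with no test. At 1270 CpGs of the members read on both strands, the libraries differed by 4.90 points on average on the plus strand and 4.71 on the minus strand. The strands of 1 library differed by 5.02 points in TSPAN8-high and by 5.03 in TSPAN8-low. Single genes varied. In Pdx1 the gap between libraries was 4.10 points on the plus strand and 4.03 on the minus strand, and that between strands 3.13 in TSPAN8-high, against 5.38 in TSPAN8-low. A gap of 20 points or more between libraries occurred at 6.93% of these CpGs on the plus strand and 5.67% on the minus strand, and between strands at 6.54% in TSPAN8-high, against 7.01% in TSPAN8-low.

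**Figure D4:**
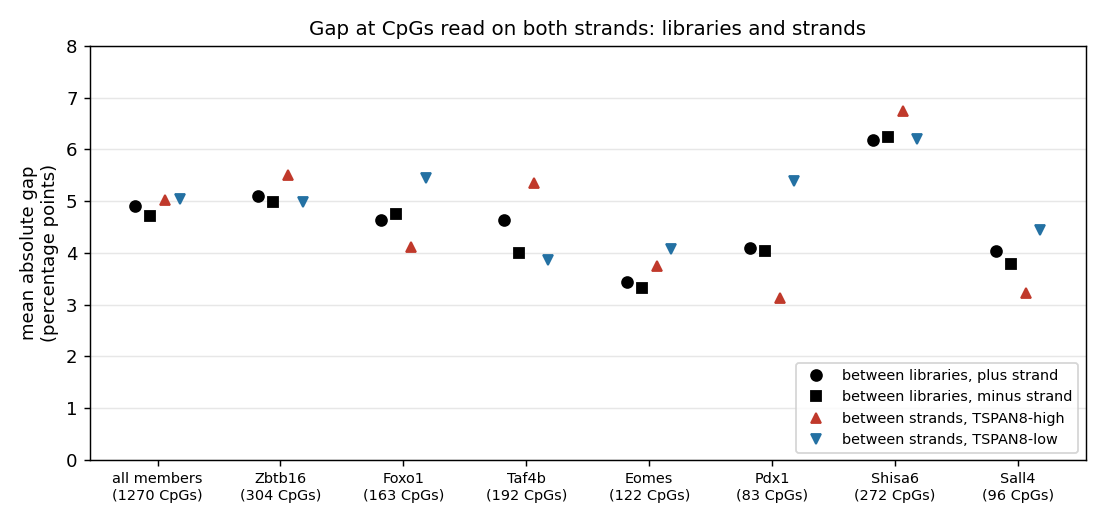
Mean absolute gap in methylation (percentage points) at CpGs read on both strands, between libraries on each strand (black) and between the strands of each library (coloured), for all 10 genes together and for the 7 with the most such CpGs. Over all members the 4 values run from 4.71 to 5.03. Of the 7 genes shown, Shisa6 has the widest gaps, and those between strands reach 6.74 in TSPAN8-high.

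Levels differed by CpG density. The 858 member cytosines with 10 or more listed CpGs in 200 bp stood at 0.823% in TSPAN8-high, against 0.632% in TSPAN8-low. Such cytosines in the rest of the table stood at 2.03% in TSPAN8-high, against 2.33% in TSPAN8-low. The 1541 with at most 2 stood at 90.7% in TSPAN8-high, against 91.5% in TSPAN8-low, and elsewhere at 89.1% in TSPAN8-high, against 89.4% in TSPAN8-low. The members had more of the dense class, 23.5% of their cytosines against 8.68%. These shares describe 10 genes and were given no test.

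Beyond the 10, 25 further genes of spermatogonial stem cells and their surface markers were listed, of which 24 had a tested promoter window. None was called, against 0.601% of all windows, and windows below 5% in both libraries could not reach the 10 points of a call. Of the 24, 6 had an unadjusted p below 0.05, against 17% of all, and 13 were higher and 11 lower in TSPAN8-high, with a median difference of 0.0193 points against -0.00715 over all genes. The smallest adjusted p by Fisher's exact test was 0.00399, in Id4, the gene whose reporter marks the sorted cells. Its 187 cytosines stood at 1.64% of 26916 reads in TSPAN8-high, against 1.23% of 32249 reads in TSPAN8-low. No other window of the list held more than 1968 reads in either library. The sorted cells carry the Id4-eGfp transgene, and the part of its copies in these reads was not tested. In this list, 23 of 24 were below 5% in both libraries, against 69.1% of all windows. The exception was Thy1, a surface protein used to enrich stem cells, at 70.6% in TSPAN8-high, against 69.5% in TSPAN8-low over 6 CpGs, and at 45.7% in TSPAN8-high, against 47.4% in TSPAN8-low, with each cytosine counted once.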

How the data were processed

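DNA methylation was measured by RRBS in 1 library per fraction, and the 8 chromatin samples of the series were left out. The deposited table has a line per cytosine. Its level is a fraction, methylated over all reads, as deposited. The deposited coverage is a count of reads, with no value below 5. The deposited difference (high minus low) and p-value per cytosine are the authors' own. The submitters' processing notes name mm10, mm9, Bowtie and SICER without a role, and the aligner for RRBS is not given in the sources used here. Listed positions were checked against RefSeq promoter sequence of GRCm38.p6.

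The number of methylated reads was taken as level times coverage, to the nearest whole read. Start sites came from the RefSeq promoter table, which covers 17492 genes and 6 members. For Zbtb16, Taf4b, Shisa6 and Sall4, and 4395 genes in all, the gene end with more listed CpGs was used. Fisher's exact tests ran over all features, with Benjamini-Hochberg adjustment, called at an adjusted p below 0.05 and 10 points, or 20 points for single cytosines. All 10 members were named by rule, with each member's tile of largest difference. The members and lists were chosen with earlier results of these data known. Thy1, Id4, Tex101, Mest, Snrpn, Plagl1 and the single cytosines described were picked after their values were seen. Intervals cover counting error only, and are too narrow where a read covers several CpGs, since reads were not tied to single molecules. A count of 0 allows 3 reads of the total. With 1 library each, nothing measures the spread between animals or sorts. The tests were checked on simulated data. Python 3.11.15, numpy 2.4.6, scipy 1.17.1, pandas 2.3.3, numba 0.67.0 and matplotlib 3.10.9 were used.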

Additional observations from a re-analysis of the deposited data

How the results depend on the processing

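No paired analysis was possible because each fraction has 1 library, and none could be left out for the same reason. Single cytosines had a median depth of 10 in TSPAN8-high, against 11 in TSPAN8-low. Over 179 recomputed values, 145 moved by less than their counting interval (counts within 1.5 times). Some of the 145 could not move. Placing every start at the CpG-richer gene end gave each window its main difference, and had to for Zbtb16, Taf4b, Shisa6 and Sall4, already placed so. No promoter window of a member was called under any setting. In the main setting the 8 windows below 5% could not reach 10 points, and without a minimum difference none was called either. The moved values follow as differences in points, TSPAN8-high minus TSPAN8-low, and unless a value below shows it the cause was not tested. With at least 10 reads the Shisa6 body was at -1.58. With at least 20 reads the windows of Zbtb16, Taf4b and Pdx1 were at -1.72, 1.62 (adjusted p = 0.0136 by Fisher's exact test, against 0.260 with at least 5 reads) and -2.51, and the bodies of Foxo1 and Shisa6 at 0.663 and -2.62. With 1 CpG kept per 100 bp the windows of Foxo1, Taf4b, Eomes, Pdx1 and Utf1 were at 1.45, 2.46, 0.430, 6.54 and 2.86. The bodies of Foxo1, Pdx1, Shisa6 and Sall4 were then at 0.356, -8.53 (adjusted p = 0.0331, exact test), -1.86 and -1.18. On the plus strand alone the Zbtb16 window was at 0.694 and the bodies of Foxo1, Shisa6 and Sall4 at -0.546, -3.78 and 9.24. On the minus strand alone these were -0.447, -4.85, 3.06 and -0.691, so the Shisa6 and Sall4 bodies changed sign between strands. By the exact test, the adjusted p of the Shisa6 body was 0.000484 on the plus and 0.00788 on the minus strand. That of the Sall4 body was 0.000100 on the plus and 0.936 on the minus strand, and that of the Foxo1 body 0.912 and 0.00307. Windows of 2 kb either side gave -1.19 in Zbtb16 and 4.10 in Utf1 (adjusted p = 0.0148, exact test, against 0.395 with 1 kb). Unweighted means gave bodies of 0.131 in Foxo1, -0.0245 in Eomes, -1.25 in Pdx1 and 0.335 in Sall4. Equal weights in both libraries, chosen after seeing the data, gave 0.0647 in Foxo1, 0.515 in Eomes and 0.809 in Sall4. With no minimum difference 4 bodies were called, and with plus-strand cytosines alone 1 tile was.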

Other observations

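The tile called on the plus strand alone lay in the body of Shisa6, at chr11:66393001-66394000. Its 6 plus-strand CpGs stood at 69.2% of 39 reads in TSPAN8-high and 98.7% of 77 reads in TSPAN8-low, a difference of -29.5 points (-45.2 to -16.0, adjusted p = 0.00870, Fisher's exact test). Of these, 5 CpGs lay within 14 bp and each had 6 reads in TSPAN8-high and 14 reads in TSPAN8-low. The 5 CpGs of the minus strand went the other way, with 26 of 30 reads methylated in TSPAN8-high (86.7%) and 14 of 30 in TSPAN8-low (46.7%). Both strands together gave 76.8% in TSPAN8-high and 84.1% in TSPAN8-low (adjusted p = 0.883, exact test).

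Outside its unmethylated start region and its flank, Zbtb16 had 2 neighbouring tiles below 80% in TSPAN8-high, near the far end of the gene. The tile chr9:48654001-48655000 stood at 27.6% of 76 reads in TSPAN8-high, against 39.1% of 133 reads in TSPAN8-low (difference -11.5 points, -23.7 to 2.02, adjusted p = 0.721, exact test). The tile at chr9:48655001-48656000 stood at 42.0% in TSPAN8-high, against 51.2% in TSPAN8-low. The flank of Nanos2 past its end held both states, at 18.3% of 279 reads in TSPAN8-high, against 23.7% of 279 reads in TSPAN8-low over 12 CpGs.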
